A study of Rattus norvegicus with 64 samples.

Results

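The nuclear-encoded subunits of the mitochondrial respiratory chain and ATP synthase were followed in rat urinary bladder walls reconstructed with a decellularised graft, with or without stromal cells. Members were taken by name: every array probe whose RefSeq transcript belongs to a rat gene with a symbol that starts with Ndufa, Ndufb, Ndufc, Ndufs or Ndufv and a number (complex I), that is Sdha, Sdhb, Sdhc or Sdhd (complex II), or that starts with Uqcr (complex III), Cox4 to Cox8 (complex IV) or Atp5 (complex V). The rule found 77 genes measured by 96 probes, of 15715 named genes and 30367 gene probes on the array. Complex I had 32 members, complex II 4, complex III 8, complex IV 17 and complex V 16. For the 16 members with several probes the brightest probe stood for the gene. The isoforms Cox7a1 and Cox7b2 and the complex I paralogue Ndufa4l2 had no named probe, and none of the 13 subunits encoded in mitochondrial DNA was named on the array.

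The respiratory chain in the inner mitochondrial membrane passes electrons from NADH and succinate to oxygen through complexes I to IV, and complex V uses the resulting proton gradient to make ATP. Most subunits are encoded in the nucleus and must be made in step with the few encoded in mitochondria, a coordination for which the factors NRF1, GABPA and YY1 and the coactivators of the PGC-1 family are known. Several subunits of complex IV, cytochrome c oxidase, exist as isoforms from separate genes that different tissues use. In the bladder wall, oxidative phosphorylation serves above all the contracting smooth muscle, and the urothelium that lines the lumen depends on it as well.

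Syngeneic male Wistar rats underwent hemicystectomy, the surgical removal of part of the bladder, and every animal received a graft of bladder acellular matrix (BAM) of about 1 cm2. In the BAM groups the matrix was implanted without cells. In the BAM+ASCs groups it was first seeded with 10000000 adipose tissue-derived mesenchymal stromal cells (ASCs) of the third passage, grown from the fat of male Wistar rats 10 weeks old; the age of the operated rats is not given in the sources used here. The reconstructed wall was collected after 7, 30, 90 or 180 days, and total RNA of 8 animals per graft and day, numbered as biological replicates, was hybridised to 1-colour Agilent arrays. Donor and host were of the same strain and sex, so RNA from seeded cells cannot be told apart from RNA of the host. In such bulk RNA, fewer cells of a type and less RNA per cell cannot be told apart either.

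Levels are given as log2 of the background-subtracted probe signal minus the array's 75th percentile over gene spots, so that 0 is that percentile. The 8 arrays of a group shared 1 slide that held no other group, and an effect of the slide cannot be told apart from that of the group. Days 7 and 30 had 1 scan date and days 90 and 180 the other. Signal well above the local background, as the scanner software calls it, was found for 73.3 to 95.6% of gene spots per array at days 7 and 30 and for 35.5 to 64.6% at days 90 and 180. The BAM arrays of day 90 stood apart: their mean local background was 345 intensity units against 43.4 to 156 in the other 7 groups, and their saturated spots lay at a median level of 4.60 on the log2 scale against 5.50 to 5.80. The tissue label was checked against marker genes: all 13 smooth muscle markers were above background on every array, and each of 15 urothelial markers was found on 1 or more arrays of every group. Of 14 markers of striated muscle, 5 to 9 per group were above background on all 8 arrays and 0 to 5 on none. Myh4 and Myl1 were among those not above background on any array of several groups.

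Of the 77 members, 73 were well above background on all 64 arrays. The exceptions were Uqcrq, missed on 1 array, Cox6a2, detected on 47 arrays, Cox8b, detected on all 32 arrays of days 7 and 30 and on none of days 90 and 180, and Cox8c, detected on 2 arrays. In the other direction, 20 members were saturated on 1 or more arrays and 57 on none. For 36 members the reference names 1 or more pseudogene copies, and the signal cannot be split between a gene and a near-identical copy; Cox7c has 3 such copies and Cox6c 3, whereas none is named for Cox4i2, Cox6b2, Uqcrq or Sdha.

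The start regions of 3 members whose levels differed between the grafts in more than 1 comparison are shown first, with that of Sdha, the catalytic subunit of complex II, whose level differed little. The sequences come from RefSeq (build GRCr8) and hold 250 bases before and 50 bases after the annotated start, written 5′ to 3′ on the gene's strand; capitals mark GCGC, any 2 bases and GCGC in Sdha and CCGGAAGT in Uqcrq. The regions are chr1:78122621-78122920 on the plus strand for Cox6b2, chr2:18579121-18579420 on the minus strand for Cox7c, chr10:38089929-38090228 on the minus strand for Uqcrq, and chr1:30764303-30764602 on the plus strand for Sdha.
Cox6b2: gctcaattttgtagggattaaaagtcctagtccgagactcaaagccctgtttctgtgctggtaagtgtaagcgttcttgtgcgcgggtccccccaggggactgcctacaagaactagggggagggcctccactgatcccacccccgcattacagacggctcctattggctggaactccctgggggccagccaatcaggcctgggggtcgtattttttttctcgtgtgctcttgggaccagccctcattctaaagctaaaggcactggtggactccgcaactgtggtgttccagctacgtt
Cox7c: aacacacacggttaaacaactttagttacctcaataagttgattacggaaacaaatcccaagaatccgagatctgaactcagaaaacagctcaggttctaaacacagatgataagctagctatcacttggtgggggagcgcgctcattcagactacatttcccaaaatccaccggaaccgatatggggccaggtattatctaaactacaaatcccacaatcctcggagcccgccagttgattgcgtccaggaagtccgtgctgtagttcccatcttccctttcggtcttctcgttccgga
Uqcrq: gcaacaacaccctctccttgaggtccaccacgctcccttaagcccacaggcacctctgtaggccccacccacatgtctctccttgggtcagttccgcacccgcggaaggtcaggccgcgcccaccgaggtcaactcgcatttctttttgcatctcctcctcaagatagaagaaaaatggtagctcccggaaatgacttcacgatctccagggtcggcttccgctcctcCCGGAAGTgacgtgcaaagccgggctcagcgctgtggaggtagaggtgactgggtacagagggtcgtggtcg
Sdha: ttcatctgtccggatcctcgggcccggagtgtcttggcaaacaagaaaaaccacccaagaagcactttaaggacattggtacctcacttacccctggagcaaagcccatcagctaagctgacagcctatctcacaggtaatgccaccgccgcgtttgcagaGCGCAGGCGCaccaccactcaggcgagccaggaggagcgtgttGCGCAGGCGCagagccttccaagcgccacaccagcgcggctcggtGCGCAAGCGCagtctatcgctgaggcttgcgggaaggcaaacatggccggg

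Promoter entries were found for 67 of the 77 members. On either strand, GCGC followed by any 2 bases and GCGC, a relaxed form of the NRF1 site, occurred in 19.4% of them against 6.15% of all 27457 promoters of the table, and its subset with AT as the 2 bases in 5.97% against 0.932%. The GABPA motif CCGGAAGT was present in 11.9% against 4.01%, and the YY1 motif AAGATGGCG in 13.4% against 1.93%. The 13 promoters of complex IV held neither form of the NRF1 motif and no YY1 motif, and 2 of them held the GABPA motif. Sdha had the relaxed NRF1 form at 3 places, first bases 89, 46 and 1 before the start, and Uqcrq had CCGGAAGT 22 bases before it, while Cox6b2 and Cox7c had no match in this window. These are matches of letters and not measured binding.

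Averaged over the members of a complex, the grafts differed by -0.20 to 0.28 on the log2 scale, and the arrays of both grafts overlapped in every complex on every day. The mean level of complex I was 2.65 ± 0.06 (SD) in BAM and 2.64 ± 0.05 in BAM+ASCs at day 7, and 2.95 ± 0.12 and 2.89 ± 0.11 at day 180. Complex II had means of 2.05 ± 0.05 at day 7, 2.41 ± 0.14 at day 30 and 1.99 ± 0.10 at day 180 in BAM, with 2.07 ± 0.09, 2.29 ± 0.07 and 1.94 ± 0.09 in BAM+ASCs. These averages carry no test. Complex II had its highest mean at day 30 in both grafts.

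Complex III at day 7 averaged 2.73 ± 0.10 in BAM and 2.60 ± 0.07 in BAM+ASCs, with 5 of 8 BAM+ASCs arrays below all BAM arrays. At day 180 it averaged 2.79 ± 0.12 and 2.91 ± 0.10, with 5 of 8 BAM+ASCs arrays above all BAM arrays. On each of these days 4 of its 8 members had a positive and 4 a negative fold change. The member medians were 0.012 at day 7 and 0.0077 at day 180. The widest changes were those of a single gene, Uqcrq, at -0.77 and 0.80. Complex IV had its lowest mean in the BAM+ASCs arrays of day 7, at 1.48 ± 0.07 against 1.68 ± 0.19 in BAM, and its highest in those of day 180, at 2.21 ± 0.14 against 2.07 ± 0.24. All complex IV means include Cox6a2, Cox8b and Cox8c, which were not above background on every array. Cox8c averaged -8.21 at day 7 and -5.43 at day 180 in BAM+ASCs, above background on no array of either group. In the order of the 8 group means, the step from BAM+ASCs to BAM at day 7 exceeded the larger of both SDs in complexes III and IV, as did the step from BAM at day 7 to BAM at day 30 in complexes I and V. All other neighbours in that order, and all in complex II, differed by less. Set against each array's median over all gene probes, the day 180 differences of complexes III and IV changed sign, from 0.12 to -0.05 and from 0.15 to -0.02, and their day 7 differences went from -0.13 to -0.0047 and from -0.20 to -0.08. At day 180 that median lies near background: 45.0 to 62.4% of gene spots per BAM array and 55.3 to 59.9% per BAM+ASCs array were well above it. Probes well above background had a median graft change of 0.0075 at day 180. Quantile normalisation gave -0.0844 for complex IV at day 7.

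Complex V averaged 3.92 ± 0.19 in BAM and 4.20 ± 0.14 in BAM+ASCs at day 90, the widest gap between the grafts, at 0.28. Over the 9 of its 16 members that were saturated on no array the gap was 0.10. For complex IV at day 90 the opposite held: the means of all 17 members differed by -0.06, and those of the 11 members saturated on no array by -0.38, with 7 of 8 BAM+ASCs arrays below all BAM arrays. These 11 include Cox8b and Cox8c, whose probes were above background on no array of day 90. They stood at -5.03 and -5.04 in BAM and at -5.35 and -5.82 in BAM+ASCs. Their part in the gap was not tested. The saturated probes are described beside the single genes.

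**Figure D1:**
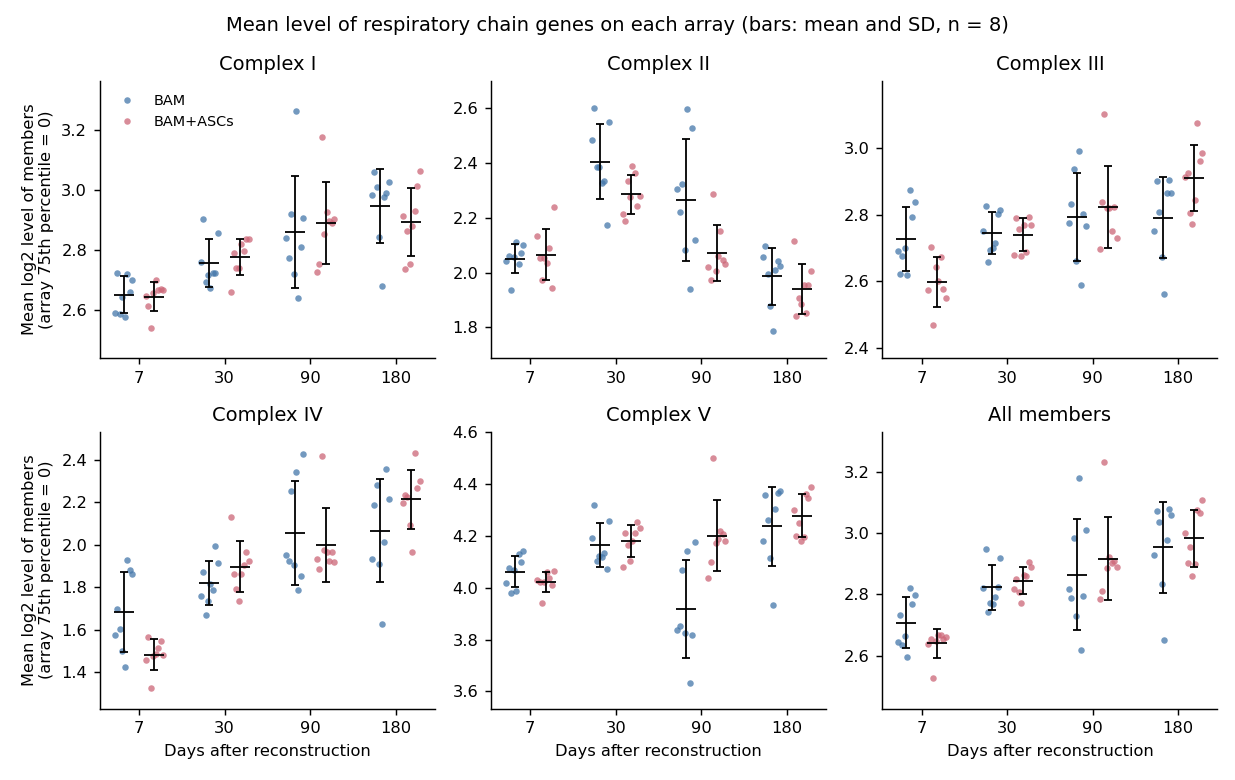
Mean log2 level of the members of each complex on each array (y axis, array 75th percentile at 0) by day after reconstruction (x axis) for BAM (blue) and BAM+ASCs (red); black bars are mean and SD of 8 arrays. The grafts overlap on every day, and complex V at day 90 shows the widest gap, 3.92 against 4.20.

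Single genes were compared with limma over all 30367 probes and 64 arrays, and a member was called where the Benjamini-Hochberg adjusted p was below 0.01 and the change above 1.5-fold. Between the grafts, 13 of the 77 members were called on 1 or more days and 64 on none. At day 7, 0 members were called higher and 3 lower in BAM+ASCs than in BAM, where 2.11% and 5.62% of all probes were called in these directions. At day 30 none was called in either direction, against 1.2% and 0.474% of probes; a two-way analysis of variance and quantile normalisation gave the same count, and at an unadjusted limma p under 0.05 there were 5 higher and 6 lower members. At day 90, 8 were called higher and 4 lower, against 3.88% and 8.6%, and at day 180, 4 were called higher and 0 lower, against 2.4% and 0.0428%. At an unadjusted p under 0.05, limma gave 5 higher members at day 7 and 10 lower at day 180, and the two-way analysis of variance called 0 in both. Among probes well above background on all 16 arrays, 8.2% were called higher and 4.83% lower at day 90.

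Member medians of the log2 fold change were -0.04, 0.00, 0.04 and -0.01 at days 7, 30, 90 and 180, and the medians over all probes were -0.16, 0.11, -0.27 and 0.06. Over probes well above background the medians were -0.10, 0.02, 0.02 and 0.01. Within 1.2-fold of no change lay 68, 72, 45 and 69 of the 77 members on the 4 days. Complex I, with the most members, had no member called between the grafts on any day, nor had complex II.

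**Figure D2:**
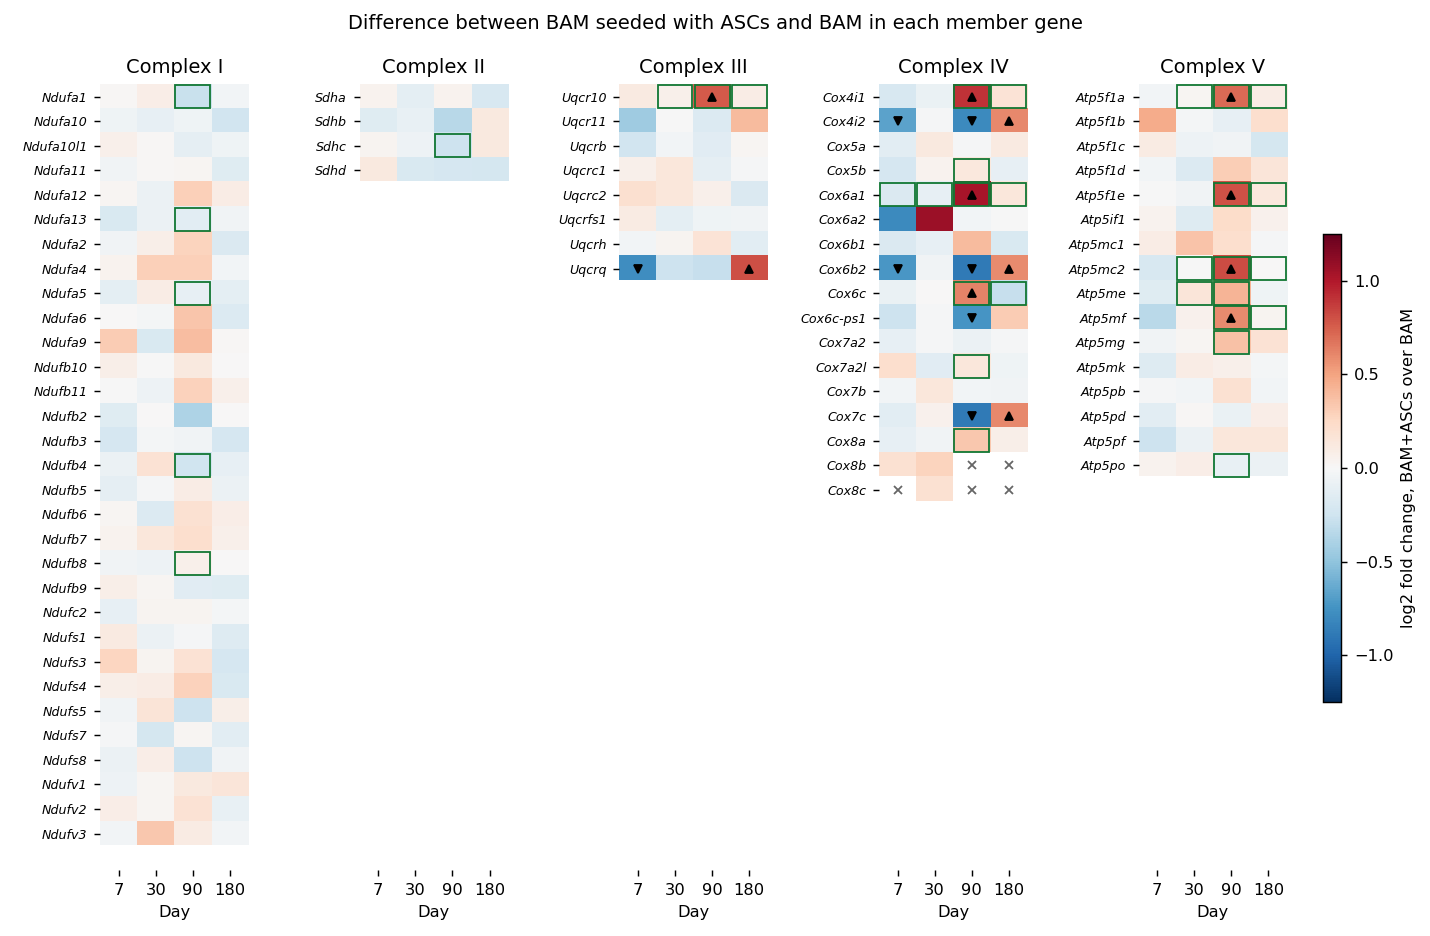
log2 fold change of BAM+ASCs over BAM (colour) for 76 members (rows, by complex) at days 7, 30, 90 and 180 (columns); triangles mark calls (up, higher in BAM+ASCs; down, lower), green frames a probe saturated on 1 or more of the 16 arrays, and crosses a probe not above background in either group. Calls lie in complexes III, IV and V only, and all 8 upward calls of day 90 are framed.

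At day 7 the 3 members lower with ASCs were 1 subunit of complex III and 2 isoforms of complex IV. Uqcrq, a small subunit of complex III at its ubiquinone-binding side, ranged from -1.57 to -0.46 with a median of -1.18 in BAM and from -2.13 to -1.58 with a median of -1.82 in BAM+ASCs. All 8 BAM+ASCs arrays lay below every BAM array, a log2 fold change of -0.77 (SE 0.15, limma adjusted p = 8.3e-05). Cox4i2, the isoform of subunit 4 known from lung and from low oxygen, ranged from -0.02 to 1.35 with a median of 0.53 in BAM and from -0.45 to 0.24 with a median of -0.14 in BAM+ASCs. Here 6 of 8 BAM+ASCs arrays lay below all BAM arrays, and the log2 fold change was -0.67 (SE 0.13, adjusted p = 1.7e-04). Without BAM replicate 6, the highest array, the change in Cox4i2 no longer reached the fold threshold, nor did it with scaling to the probes detected on all arrays.

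Cox6b2, the isoform of subunit 6B known from testis, ranged at day 7 from 1.27 to 2.85 with a median of 1.97 in BAM and from 0.92 to 1.63 with a median of 1.33 in BAM+ASCs. The log2 fold change was -0.72 (SE 0.14, adjusted p = 1.9e-04), although the groups overlapped and only 2 BAM+ASCs arrays lay below all BAM arrays. In a separate limma fit of day 7 alone, Cox6b2 and Cox4i2 were not called (adjusted p = 0.019 and 0.016). BAM replicates 6 and 2 were the highest and the lowest for all 3 genes, and the SDs were larger in BAM for each of them. Of the 17 members of complex IV, 15 had a negative fold change at day 7, with a median of -0.13, close to the median of all probes.

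The highest positive changes at day 7, neither past the fold threshold, were in Atp5f1b, the catalytic beta subunit of ATP synthase, at 0.46 (SE 0.11, adjusted p = 1.6e-03), and in Ndufa9, an accessory subunit of complex I, at 0.32 (SE 0.09, adjusted p = 5.5e-03). In each, 6 of 8 BAM+ASCs arrays lay above all BAM arrays. The most negative estimate, -0.80 for the striated muscle isoform Cox6a2, did not pass the test (adjusted p = 0.28), and BAM replicate 2 stood at 0.53 while the BAM median was -3.13. Markers of urothelium differed on the same arrays: 11 of 15 were called higher in BAM+ASCs, against 2.11% of all probes. The mean level of the list ran from -2.83 to 2.08 in BAM and from 1.19 to 2.50 in BAM+ASCs. Of 9 endothelial markers, 2 (Kdr and Vwf) were called lower, against 5.62% of all probes. The list's mean level was 0.29 ± 0.25 in BAM and -0.20 ± 0.19 in BAM+ASCs. Neutrophil and macrophage markers averaged 0.45 ± 0.47 in BAM and -0.23 ± 0.24 in BAM+ASCs, and T and B cell markers -1.27 ± 0.66 and -1.82 ± 0.33. The part of these differences in the members' changes was not tested.

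At day 30, where 72 of the 77 members lay within 1.2-fold, no member reached both thresholds. Atp5mc1, 1 of the genes for the c ring of ATP synthase, was 0.36 higher in BAM+ASCs (SE 0.08, adjusted p = 2.8e-03) with all 8 arrays above the BAM arrays, but at 1.28-fold it was not called. The lowest fold changes among measured members, -0.26 for Uqcrq (adjusted p = 0.25) and -0.22 for Ndufs7, a core iron-sulfur subunit of complex I (adjusted p = 0.16), did not pass the test. Cox6a2 was estimated 1.07 higher (SE 0.48, adjusted p = 0.15), on levels from -3.92 to -1.16 in BAM+ASCs. On the same arrays, urothelial markers averaged 1.87 ± 0.60 in BAM and 2.95 ± 0.45 in BAM+ASCs. T and B cell markers averaged -1.17 ± 0.84 and -2.18 ± 0.62. The part of these lists in the members' levels was not tested.

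At day 90, 4 genes of complex IV were lower with ASCs, and none of their probes was saturated on any day 90 array. Cox7c, a small subunit that all tissues express, ranged from 1.13 to 2.28 with a median of 1.69 in BAM and from 0.39 to 1.36 with a median of 0.72 in BAM+ASCs. In 7 of 8 BAM+ASCs arrays it lay below all BAM arrays, and the log2 fold change was -0.89 (SE 0.13, adjusted p = 5.3e-07). Cox6b2 ranged from 2.62 to 3.44 with a median of 2.94 in BAM and from 1.73 to 2.38 with a median of 2.10 in BAM+ASCs. Its groups did not overlap, at -0.88 (SE 0.14, adjusted p = 2.4e-06). In both genes the change was about 1.85-fold.

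Cox4i2 ranged at day 90 from -0.04 to 1.22 with a median of 0.90 in BAM and from -0.20 to 0.26 with a median of 0.02 in BAM+ASCs. Its log2 fold change was -0.79 (SE 0.13, adjusted p = 3.8e-06), with 4 BAM+ASCs arrays below all BAM arrays; BAM replicate 8, at -0.04, lay among the BAM+ASCs arrays. Cox6c-ps1, annotated as a pseudogene of Cox6c, ranged from 1.09 to 2.42 with a median of 1.73 in BAM and from 0.53 to 1.65 with a median of 0.87 in BAM+ASCs, at -0.74 (SE 0.15, adjusted p = 1.7e-04). A separate fit of day 90 ended this call (adjusted p = 0.017). Signal from transcripts of Cox6c itself cannot be told apart on this probe. Sdhb, the iron-sulfur subunit of complex II, differed by -0.34 (SE 0.06, adjusted p = 2.7e-05) with all 8 BAM+ASCs arrays below every BAM array, under the fold threshold.

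The 8 members called higher with ASCs at day 90 were Uqcr10 of complex III, Cox4i1, Cox6a1 and Cox6c of complex IV, and Atp5f1a, Atp5f1e, Atp5mc2 and Atp5mf of complex V. Cox4i1, the ubiquitous isoform of subunit 4, ranged from 4.53 to 5.64 with a median of 4.75 in BAM and from 5.52 to 6.14 with a median of 5.77 in BAM+ASCs, a fitted log2 fold change of 0.91 (SE 0.13, adjusted p = 7.7e-08). Cox6a1, the ubiquitous isoform of subunit 6A, ranged from 4.33 to 6.05 with a median of 4.54 in BAM and from 5.61 to 6.09 with a median of 5.75 in BAM+ASCs, at 1.03 (SE 0.14, adjusted p = 8.4e-08). Atp5f1e, the epsilon subunit of the catalytic head, ranged from 4.52 to 5.41 with a median of 4.78 in BAM and from 5.55 to 5.89 with a median of 5.63 in BAM+ASCs, at 0.80 (SE 0.09, adjusted p = 1.9e-10). Fitted changes of the other 5 were between 0.59 and 0.82, and quantile normalisation called none of the 8 and 1 other member higher.

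All 8 probes were saturated on 7 of the 8 BAM arrays of day 90, so that their BAM levels are lower bounds and these calls have no measured size. The array that was not saturated was in each case BAM replicate 8. This array had 35.5% of gene spots well above background, against 53.0 to 58.5% on the other BAM arrays of day 90. Its 75th percentile of processed signal, subtracted from its levels, was 959 intensity units against 1896 to 3148. On it Cox6a1 stood at 6.05, Cox6c at 5.90, Atp5mc2 at 5.81 and Atp5f1a at 5.68, each above 7 of the 8 BAM+ASCs arrays. Atp5f1e at 5.41 was below all of them. Over all groups Cox6a1 was saturated on 51 of 64 arrays and Cox4i1 on 24. At day 90, 2 members were saturated on 1 or more BAM+ASCs arrays. Such BAM+ASCs levels are lower bounds too, and the rank of Cox6a1 may not be a measured one. Treating saturated spots as missing leaves BAM replicate 8 as the only BAM array for the 8 genes. Leaving saturated probes out removes them, so neither setting can test the 8. In both settings, which were chosen after the data had been seen, 4 members were called lower. Cytosolic ribosomal protein genes gave calls in the same direction: 69 of 78 were called higher at day 90, with a median of 1.05, against 3.88% of all probes. Between days 30 and 90 in BAM, 66 of 78 were called lower, against 9.49%. Their mean level in BAM at day 90 was 4.56, where saturated spots of that group lay at a median level of 4.60. The part of saturation in these calls was not tested.

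**Figure D3:**
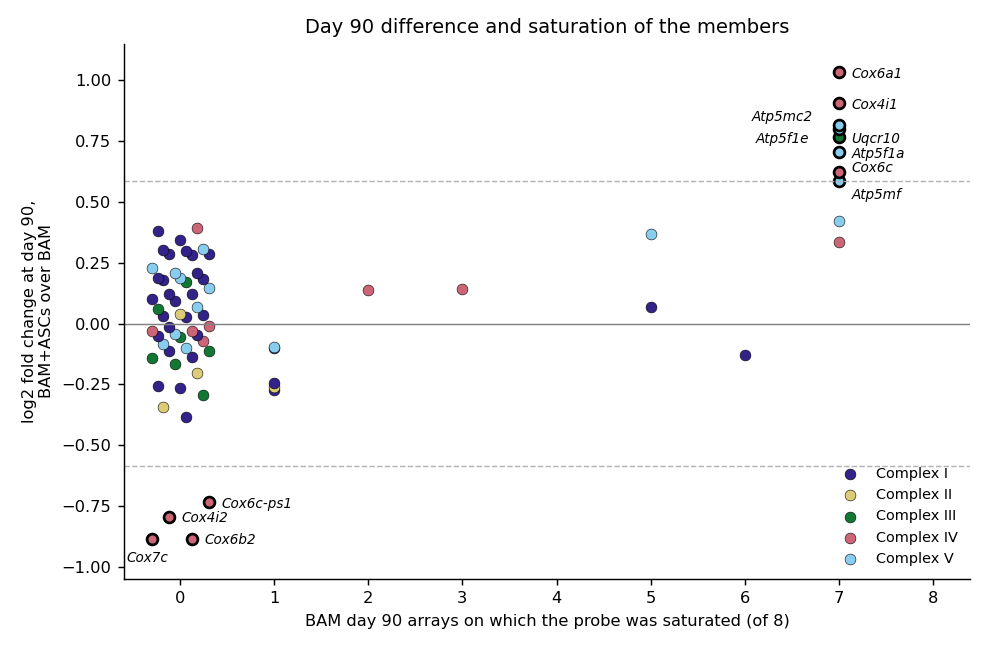
log2 fold change of BAM+ASCs over BAM at day 90 (y axis; dashed lines, 1.5-fold) against the number of BAM day 90 arrays, of 8, on which the member's probe was saturated (x axis; points at 0 are spread sideways), coloured by complex, with called members outlined and named. All 8 upward calls sit at 7 saturated arrays and all 4 downward calls at 0; Cox8b and Cox8c, not above background, are left out, as is 1 other member.

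For several members the probes differed. At day 90, 3 of the 16 members with several probes had a probe called, and in all 3 it was 1 probe of 2: the fold changes were 0.82 and 0.27 for Atp5mc2, a c-ring gene, 0.59 and -0.06 for Atp5mf, subunit f of the membrane part, and -0.74 and -1.42 for Cox6c-ps1. In 11 of the 16 the probes had opposite signs at day 90, against 4, 9 and 7 at days 7, 30 and 180.

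Among members well above background and unsaturated on all 16 arrays of day 90, the highest fold changes were 0.39 for Cox6b1 (SE 0.09, adjusted p = 4.9e-04), the ubiquitous isoform of subunit 6B, and 0.38 for Ndufa9 (SE 0.09, adjusted p = 5.3e-04). All 8 BAM+ASCs arrays of Cox6b1 lay above the BAM arrays, from 3.13 to 3.57 against 2.68 to 3.12. This is the brightest of its 3 probes, whose fold changes ran from -0.24 to 0.39. Neither gene reached 1.5-fold. Smooth muscle markers differed on the same arrays: 4 of 13 were called higher in BAM+ASCs (Actg2, Myh11, Tagln and Tpm2), against 3.88% of all probes. Of the 1178 probes called higher at day 90, 554 were saturated on 1 or more of the 16 arrays. Whether the probes of these 4 markers were among them is not reported here. The mean level of the smooth muscle list ran from 2.70 to 4.44 in BAM and from 3.55 to 4.47 in BAM+ASCs. Adipocyte markers averaged -1.89 ± 0.53 in BAM and -2.70 ± 0.68 in BAM+ASCs, with Lep and Ucp1 above background on no array of either group. Urothelial markers averaged 2.09 ± 1.11 in BAM and 3.00 ± 0.49 in BAM+ASCs. Neutrophil and macrophage markers averaged -1.57 ± 0.66 and -2.15 ± 0.82, and T and B cell markers -2.23 ± 1.05 and -2.96 ± 0.84. Most markers of these immune lists were not above background on all 8 arrays of a group. The part of these lists in the members' changes was not tested.

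At day 180, 4 members were higher with ASCs, and 3 of them were the complex IV genes that had been lower at day 90. Uqcrq ranged from -1.14 to -0.44 with a median of -0.94 in BAM and from -0.67 to 0.71 with a median of -0.18 in BAM+ASCs. With 7 of 8 BAM+ASCs arrays above all BAM arrays, the log2 fold change was 0.80 (SE 0.15, adjusted p = 7.9e-05), and the call was kept whichever of the 16 arrays was left out but lost in a separate fit of day 180 (adjusted p = 0.013). Cox4i2 ranged from 0.13 to 0.53 with a median of 0.25 in BAM and from 0.68 to 1.08 with a median of 0.85 in BAM+ASCs, with no overlap, at 0.60 (SE 0.13, adjusted p = 1.5e-03). Cox6b2 ranged from 2.00 to 2.35 with a median of 2.14 in BAM and from 2.46 to 3.18 with a median of 2.65 in BAM+ASCs, again with no overlap, at 0.59 (SE 0.14, adjusted p = 5.6e-03).

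Cox7c at day 180 ranged from 0.49 to 1.30 with a median of 1.10 in BAM and from 1.26 to 1.83 with a median of 1.69 in BAM+ASCs, at 0.60 (SE 0.13, adjusted p = 2.0e-03), with 7 of 8 arrays above. The last 3 genes stood at about 1.5-fold, near the threshold. Leaving out 1 array ended the call for Cox6b2 in 6 of 16 cases, for Cox7c in 5 and for Cox4i2 in 4, and the count of 4 fell to as few as 1 without BAM replicate 4; normexp background correction gave 2. The most negative changes, -0.24 for Ndufa10 (adjusted p = 0.093), an accessory subunit of complex I, and -0.22 for Sdhd (adjusted p = 0.21), a membrane anchor of complex II, did not pass the test. Of 10 adipocyte and 9 endothelial markers none was called at day 180, but their mean levels differed on the same arrays: -2.71 ± 0.49 in BAM and -1.69 ± 0.46 in BAM+ASCs for adipocytes, and -0.31 ± 0.16 and 0.12 ± 0.27 for endothelium. Ucp1 was above background on no array of either group. Urothelial markers averaged 2.88 ± 0.41 in BAM and 2.54 ± 0.61 in BAM+ASCs, and T and B cell markers -3.60 ± 0.27 and -3.05 ± 0.77. The part of these lists in the members' changes was not tested.

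Mean levels of Cox7c were 0.38, 1.07, 1.66 and 1.04 in BAM at days 7, 30, 90 and 180, with the highest at day 90, and 0.26, 1.12, 0.78 and 1.64 in BAM+ASCs, with the highest at day 180. For Cox4i2 they were 0.55, 0.27, 0.81 and 0.26 in BAM and -0.12, 0.25, 0.01 and 0.87 in BAM+ASCs. Cox6b2 gave 2.03, 1.96, 2.95 and 2.14 in BAM and 1.30, 1.92, 2.07 and 2.73 in BAM+ASCs. Its highest mean too was at day 90 without and at day 180 with ASCs.

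**Figure D4:**
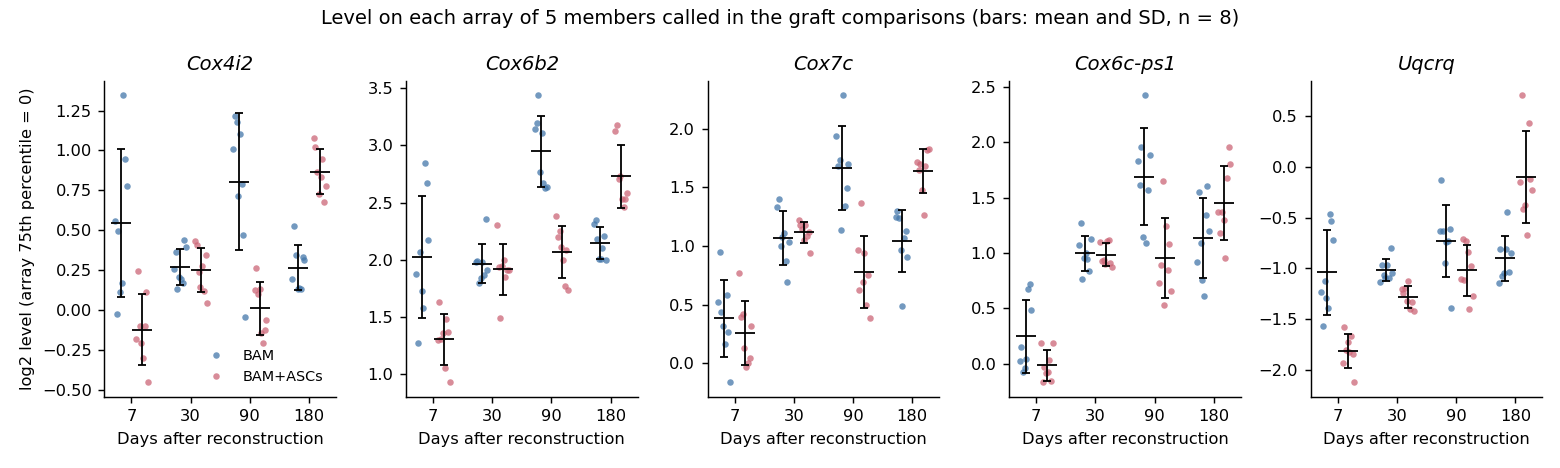
log2 level (y axis, array 75th percentile at 0) on each array for 5 members called between the grafts, by day after reconstruction (x axis), in BAM (blue) and BAM+ASCs (red); black bars are mean and SD of 8 arrays. In Cox4i2, Cox6b2 and Cox7c the BAM mean is highest at day 90 and the BAM+ASCs mean at day 180.

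The change of the graft difference from 1 day to the next was tested as a contrast of contrasts, in which the day 90 arrays enter both neighbouring steps. From day 7 to day 30, 0 members were called in either direction, where 0.886% of probes were called higher and 0.0988% lower; at an unadjusted limma p under 0.05 there were 11 higher and 6 lower. From day 30 to day 90, 6 were called higher and 3 lower, against 3.33% and 6.67% of all probes and 8.86% and 4.66% of those well above background. Cox4i2 at -0.78 (SE 0.19, adjusted p = 2.0e-03), Cox6b2 at -0.84 (SE 0.20, adjusted p = 2.3e-03) and Cox7c at -0.93 (SE 0.19, adjusted p = 2.5e-04) were the 3 lower ones, and the 6 higher ones (Atp5f1a, Atp5f1e, Atp5mc2, Cox4i1, Cox6a1 and Uqcr10) were among the 8 genes saturated in BAM at day 90.

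From day 90 to day 180, 6 were called higher and 7 lower, against 5.95% and 3.84% of all probes and 7.81% and 9.1% of those well above background on all arrays compared. Of the higher ones, 5 were Cox7c at 1.48 (SE 0.19, adjusted p = 1.2e-08), Cox6b2 at 1.47 (SE 0.20, adjusted p = 9.0e-08), Cox4i2 at 1.40 (SE 0.19, adjusted p = 3.6e-08), Uqcrq at 1.09 (SE 0.21, adjusted p = 5.5e-05) and Cox6c-ps1 at 1.05 (SE 0.21, adjusted p = 1.8e-04). None of these 5 was saturated. The 7 lower ones (Atp5f1a, Atp5f1e, Atp5mc2, Cox4i1, Cox6a1, Cox6c and Uqcr10) were again saturated in BAM at day 90. As each group is a slide, a change specific to 1 slide cannot be told apart from these changes.

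Among the paired isoforms of complex IV, Cox4i1 was saturated on no array of days 7 and 30, with means of 4.80 and 5.23 in BAM and 4.60 and 5.15 in BAM+ASCs. Its steps of 0.43 and 0.55 between these days were under the fold threshold, as were those of Cox4i2, at -0.28 and 0.37. Cox6b1 had means of 2.91, 2.85, 2.93 and 3.56 in BAM and 2.73, 2.74, 3.33 and 3.37 in BAM+ASCs. Its largest steps were between days 90 and 180 in BAM, at 0.63 (SE 0.09, adjusted p = 8.8e-08), and between days 30 and 90 in BAM+ASCs, at 0.58 (SE 0.09, adjusted p = 2.5e-07), just under the fold threshold. Its 3 probes disagreed, from -0.01 to 0.63 in the former step and from -0.77 to 0.58 in the latter, and the mean of all probes, 0.23 in the former, was not called. The partner Cox6b2 was lower in the same interval, between days 90 and 180 in BAM, at -0.81 (SE 0.14, adjusted p = 1.4e-05).

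Cox6a2, the isoform of heart and skeletal muscle, was detected on all arrays of days 7 and 30 but on only 2 to 6 of 8 arrays per group later, and its group means lay between -3.71 and -2.64. Cox7a2, the ubiquitous isoform of subunit 7A, had graft differences of -0.10, -0.01, -0.07 and -0.01 on the 4 days, with a 95% interval of -0.28 to 0.14 at day 90. Cox7a2l, a relative linked to supercomplex assembly, was at most 0.21 apart between grafts (day 7, adjusted p = 0.15), and Cox7b at most 0.14 (day 30, adjusted p = 0.23). Cox8a, the ubiquitous isoform of subunit 8, had its probe saturated on 7 of 8 BAM arrays at day 90, so that its difference there has no measured size; on the BAM array that was not saturated it stood at 5.18, above 7 of the 8 BAM+ASCs arrays. Cox8b, the muscle isoform, was called lower at day 90 than at day 30 in BAM+ASCs, at a fitted 2.05-fold (limma adjusted p = 3.1e-04). Its probe was above background on no array of day 90. The fitted value thus rests on signals not told apart from background and is no measured fold. Normexp background correction turned the estimate to 0.14 on the log2 scale. Cox8c gave no fold.

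Complex II, which also belongs to the citric acid cycle, had no member called between the grafts. Sdha, its flavin-carrying catalytic subunit, ranged in BAM from 2.19 to 2.48 (median 2.28) at day 7, 2.56 to 2.75 (2.62) at day 30, 2.38 to 2.95 (2.55) at day 90 and 2.37 to 2.69 (2.46) at day 180. With ASCs it ranged from 2.08 to 2.53 (2.39), 2.42 to 2.64 (2.48), 2.45 to 2.73 (2.65) and 2.11 to 2.50 (2.26) on these days. The grafts overlapped on each day, and the log2 fold changes were 0.05, -0.12, 0.04 and -0.20 (adjusted p = 0.71, 0.26, 0.66 and 0.085), with a 95% interval of -0.34 to -0.06 at day 180. Tbp, the TATA-binding protein, used like Sdha as a reference gene in expression work, had group means from -2.01 to -1.76 and was called in no comparison.

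Sdhc, a membrane anchor of complex II, had means of 1.06 and 1.10 at day 7 and 1.76 and 1.69 at day 30 in BAM and BAM+ASCs. It was higher at day 30 than at day 7 by 0.70 in BAM (SE 0.12, adjusted p = 2.2e-05) and by 0.59 in BAM+ASCs (SE 0.12, adjusted p = 3.4e-04). BAM replicate 7 of day 90 stood at 2.83 for Sdhc and was saturated there, far above the group's median of 1.39. Sdhb was lower at day 90 than at day 30 in BAM+ASCs, at -0.47 (SE 0.06, adjusted p = 2.5e-08), and lower at day 180 than at day 90 in BAM, at -0.38 (SE 0.06, adjusted p = 5.0e-06), neither past 1.5-fold. At day 180 the means were 1.75 in BAM and 1.88 in BAM+ASCs.

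**Figure D5:**
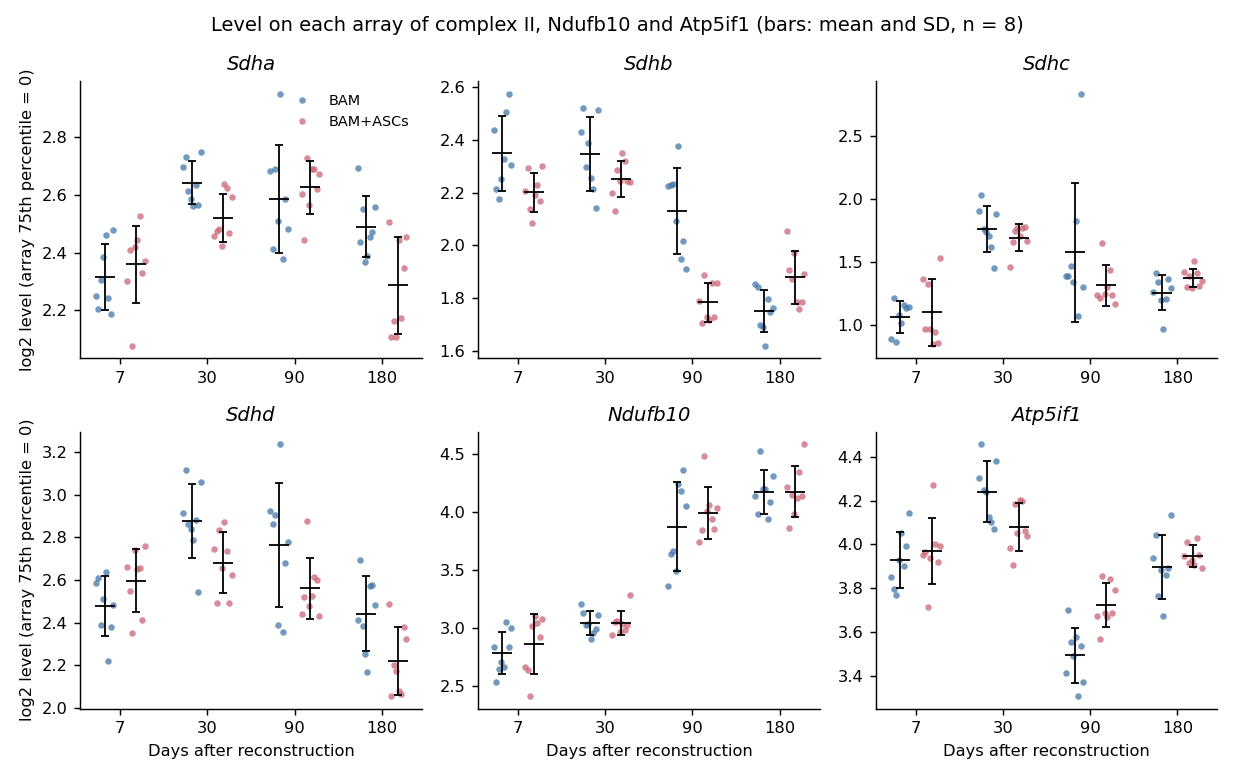
log2 level (y axis, array 75th percentile at 0) on each array for the 4 genes of complex II, Ndufb10 and Atp5if1, by day after reconstruction (x axis), in BAM (blue) and BAM+ASCs (red); black bars are mean and SD of 8 arrays. Ndufb10 lies between 2.41 and 3.28 at days 7 and 30 and between 3.36 and 4.58 at days 90 and 180, and the Sdhc mean is highest at day 30 in both grafts.

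Between days 7 and 30, 3 members were called higher and 0 lower in BAM, against 4.44% and 4.21% of probes, and 6 higher and 0 lower in BAM+ASCs, against 6.67% and 1.4%. Sdhc, Cox7c and Cox6c-ps1 were called higher in both grafts, Cox7c by 0.68 (SE 0.13, adjusted p = 1.1e-04) in BAM and 0.86 (SE 0.13, adjusted p = 2.8e-06) in BAM+ASCs. With ASCs, Cox5a at 0.69 (SE 0.11, adjusted p = 6.4e-06), Cox6b2 at 0.61 (SE 0.14, adjusted p = 1.3e-03) and Ndufb4, an accessory subunit of complex I, at 0.61 (SE 0.09, adjusted p = 1.1e-06) were called as well. In BAM these 3 stood at 0.44, -0.06 and 0.36 and were not called. The other probe of Ndufb4 changed by 0.08 in BAM+ASCs, and the mean of both, 0.34, was not called, nor was the gene under quantile normalisation (0.55). Scaling to the probes detected on all arrays gave 3 higher calls in place of the 6. At an unadjusted limma p under 0.05, 5 members were lower in each graft.

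Between days 30 and 90 the scan date changes too, and the steps cannot be told apart from it. In BAM, 5 members were called higher and 6 lower, against 35.2% and 9.49% of probes, and in BAM+ASCs 3 higher and 1 lower, against 17.8% and 10.3%. Among probes well above background the shares were 13.9% and 13.7% in BAM and 12.5% and 8.32% in BAM+ASCs. The higher counts include Cox8c in both grafts, whose probe was above background on no array of day 90 and 1 of day 30 in each, so that this call gives no fold. Ndufb10, an accessory subunit in the membrane arm of complex I, was the member that was measured on all arrays, unsaturated, and called higher in both grafts: it ranged from 2.90 to 3.21 at day 30 and from 3.36 to 4.36 at day 90 in BAM, and from 2.94 to 3.28 and from 3.74 to 4.48 in BAM+ASCs. No array overlapped between the days. The log2 fold changes were 0.83 (SE 0.11, adjusted p = 9.1e-09) and 0.95 (SE 0.11, adjusted p = 9.6e-10). The other probe of Ndufb10 did not show this, at -0.17 and -0.06, and the mean of both, 0.33 and 0.44, was called in neither graft.

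Atp5if1, the inhibitor that binds ATP synthase when the proton gradient fails, fell between days 30 and 90 in BAM: it ranged from 4.07 to 4.46 at day 30 and from 3.31 to 3.70 at day 90, without overlap, at -0.75 (SE 0.07, adjusted p = 8.6e-14). In BAM+ASCs the change was -0.36 (SE 0.07, adjusted p = 2.2e-05), from a median of 4.06 to 3.69, and was not called. Cox6b2 at 0.99 (SE 0.14, adjusted p = 4.4e-08), Cox6c-ps1 at 0.69 (SE 0.15, adjusted p = 7.7e-05) and Cox7c at 0.60 (SE 0.13, adjusted p = 1.2e-04) were called higher in BAM. The other 5 lower calls in BAM were genes saturated on the BAM arrays of day 90. Cox4i1, with 2 of 8 arrays saturated at day 90, was called higher in BAM+ASCs at 0.63 (SE 0.13, adjusted p = 4.7e-05).

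Between days 90 and 180, 9 members were called higher and 2 lower in BAM, against 5.21% and 4.17% of all probes and 12% and 4.77% of those well above background. Of the 9, 8 were those saturated on 7 of 8 BAM arrays at day 90, and the other was Cox6b1. The 2 lower ones were Cox6b2 and Cox7c, the latter at -0.62 (SE 0.13, adjusted p = 2.8e-04). In BAM+ASCs, 5 were called higher and 0 lower, against 3.52% and 0.616%, with 8 lower at an unadjusted limma p under 0.05: Uqcrq at 0.92 (SE 0.15, adjusted p = 3.3e-06), Cox7c at 0.86 (SE 0.13, adjusted p = 2.3e-06), Cox4i2 at 0.86 (SE 0.13, adjusted p = 1.9e-06), Cox6b2 at 0.67 (SE 0.14, adjusted p = 6.9e-04), and Cox8b, whose probe was above background on no array of either day and so gave no fold. Ndufa4, assigned to complex I by name and now to complex IV, had means of 3.25, 3.14, 3.50 and 3.98 in BAM and 3.29, 3.43, 3.80 and 3.94 in BAM+ASCs, with no call at any step.

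The regulators of mitochondrial biogenesis gave no call between the grafts: 0 of 12 on each of the 4 days. Over time, Esrra, a nuclear receptor of this programme, at 0.70 (SE 0.09, adjusted p = 2.0e-08), and the coactivator Ppargc1b, at 1.54 (SE 0.21, adjusted p = 9.4e-08), were higher at day 30 than at day 7 in BAM. From day 30 to day 90 in BAM, Ppargc1b was lower again, at -0.84 (SE 0.21, adjusted p = 5.2e-04), and Ppargc1a was called higher although its probe was above background on no array of either day. The citric acid cycle list (17 genes measured) had no call between the grafts either, nor had the 3 subunit genes outside the name rule, Cyc1, Cycs and Ndufab1. Of 37 assembly factors, 4 (Ndufaf1, Timmdc1, Tmem70 and Uqcc1) were called higher at day 90, where 8.2% of probes well above background were, and none on another day. Of 68 mitochondrial ribosomal proteins, 1 was called higher and 2 lower, at day 90 only, against 3.88% and 8.6% of all probes.

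In neighbouring energy pathways, fatty acid oxidation (16 genes) had 2 called higher between the grafts at day 7, Cpt1a and Cpt2, which carry fatty acids into mitochondria, where 2.11% of all probes were. Glycolysis and hypoxia (20 genes) had 2 called lower at day 30 (Bnip3 and Pfkl), where 0.474% of all probes were, and 1 at day 90 (Car9), where 8.6% were. Between days 30 and 90, 11 of these 20 were called lower and 2 higher (Hk1 and Pfkm) in BAM, and 6 lower and the same 2 higher in BAM+ASCs, against 9.49% lower and 35.2% higher of all probes in BAM and 10.3% and 17.8% in BAM+ASCs. The list medians were -0.73 and -0.49 where all probes had medians of 0.30 and 0.11, and the members of the respiratory chain had medians of 0.01 and 0.09 in the same intervals. Probes well above background had medians of 0.0031 and 0.05. Of these probes 13.7% were called lower and 13.9% higher in BAM, and 8.32% and 12.5% in BAM+ASCs. The scan date changes in this interval too and cannot be told apart from these steps.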

How the data were processed

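Total RNA (50 ng input) from 64 reconstructed bladder walls was labelled with 1 dye and hybridised to Agilent arrays. The deposited files hold spot intensity from Agilent Feature Extraction 12.0.1.1, already background-subtracted by the authors' scanner software. A deposited table of processed signal from the same arrays, taken to log2 in the same way, was used as an alternative. Values were taken to log2, the 75th percentile of 58717 gene spots was subtracted per array, outlier spots were dropped, spots of a probe were averaged, and the brightest probe stood for a gene. Spot flags were carried to probes at a share of 0.5 or more, for saturation and for signal well above background. RefSeq transcripts without version were named through the GRCr8 gene table, which gave a symbol to 18758 of 30367 probes.

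All 64 arrays entered 1 limma fit (limma 3.58.1, R 4.3.3) with 8 group means and 13 comparisons, adjusted by Benjamini-Hochberg over 30367 probes; the thresholds were 0.01 and 1.5-fold. The fit was tested on simulated data. Tables and plots used Python 3.11.15, numpy 2.4.6, pandas 2.3.3 and matplotlib 3.10.9. Replicates are separate rats per the labels, and their number limits the precision. Replicate numbers were not used as pairs in the main fit. Of 32 same-numbered pairs, 14 had a correlation of deviations over 0.1, and the 32 values ran from -0.4721 to 0.5265. Differently numbered pairs were not compared, so these values cannot show whether the numbers pair arrays. The members and lists were chosen with earlier results of these data known. Named genes were the members called between grafts, the extremes of each comparison among members measured and unsaturated on all its arrays, the isoform sets of complex IV, complex II, Ndufa4 and Atp5if1; the values of 1 member are not reported here. Alternatives were normexp (offset 50), quantile normalisation, the percentile over detected probes, dim probes left out, the mean of all probes, the deposited table, separate fits per day, a two-way analysis of variance, a replicate block and each array left out; 3 settings on saturation were added after seeing the data.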

Additional observations from a re-analysis of the deposited data

Results flagged for a closer look

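Single arrays stood apart from the other 7 of their group by more than Dixon's 95% limit in 19 of 152 groups tested, where chance gives about 1 in 20. BAM+ASCs replicate 3 of day 90 was the highest of its group for the means of complex I at 3.18, complex III at 3.10, complex IV at 2.42 and complex V at 4.50, and for Atp5mc2 at 5.88, Atp5mf at 5.46 and Uqcr10 at 6.11. BAM+ASCs replicate 3 of day 7 was the lowest for complex IV at 1.33, complex V at 3.94 and Cox4i1 at 4.29. BAM replicate 8 of day 90, the array on which these probes were not saturated, was the highest for Atp5mc2 at 5.81, Cox6a1 at 6.05 and Cox6c at 5.90. It also had the lowest share of gene spots well above background. The others were complex I at 3.26 in BAM replicate 5 of day 90, complex II at 1.94 in BAM replicate 3 of day 7, Atp5f1a at 5.55 in BAM replicate 8 of day 7, Atp5f1e at 5.42 in BAM+ASCs replicate 5 of day 180, Atp5mf at 5.27 in BAM+ASCs replicate 7 of day 30 and Cox6b2 at 2.36 in BAM replicate 7 of day 30.

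The graft difference changed between neighbouring days in the genes listed here, by the test of the change itself, on the log2 scale. From day 30 to day 90 it changed by -0.78 in Cox4i2, -0.84 in Cox6b2 and -0.93 in Cox7c. In genes saturated on 7 of 8 BAM arrays of day 90 it changed by 0.68 in Atp5f1a, 0.84 in Atp5f1e, 0.82 in Atp5mc2, 0.99 in Cox4i1, 1.14 in Cox6a1 and 0.70 in Uqcr10.

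From day 90 to day 180 it changed by 1.40 in Cox4i2, 1.47 in Cox6b2, 1.48 in Cox7c, 1.05 in Cox6c-ps1 and 1.09 in Uqcrq. In the saturated genes it changed by -0.61 in Atp5f1a, -0.67 in Atp5f1e, -0.81 in Atp5mc2, -0.73 in Cox4i1, -0.89 in Cox6a1, -0.92 in Cox6c and -0.68 in Uqcr10. Both steps share the day 90 arrays, and the part of saturation and of the slides in them was not tested beyond the settings given for the processing.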

How the results depend on the processing

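The 8 higher calls of day 90 in saturated genes were lost under quantile normalisation and with saturated spots missing, and 6 to 8 members were called higher under the other settings that keep these probes. All 85 single-gene values kept their direction and call with the deposited table of processed signal from the same arrays. They also kept their call in the two-way analysis of variance. It used the same group means with the spread of each probe taken alone, so its fold changes were the same by construction. Each group is 1 slide, and probes near or below background at days 90 and 180 limit what can be measured there.

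Quantile normalisation gave 1 member higher at day 7 (0 before) and 1 at day 90 (8), 2 lower from day 30 to 90 in BAM (6), 2 higher from day 90 to 180 in BAM (9), 1 higher and 0 lower from day 30 to 90 in BAM+ASCs (3 and 1), 3 higher from day 90 to 180 in BAM+ASCs (5), and for the change of the graft difference 0 higher from day 30 to 90 (6) and 2 lower from day 90 to 180 (7). With saturated spots missing, and likewise with saturated probes left out, the counts were 0 higher at day 90, 1 lower from day 30 to 90 and 1 higher from day 90 to 180 in BAM, 0 higher for the graft difference from day 30 to 90 and 0 lower from day 90 to 180. Normexp gave 2 higher at day 180 (4), 3 higher from day 30 to 90 in BAM (5) and 0 lower in BAM+ASCs (1). A separate fit of each day gave 1 lower at day 7 (3), with Cox6b2 and Cox4i2 not called, and the percentile over detected probes 3 higher from day 7 to 30 in BAM+ASCs (6). The causes were not tested, apart from the saturation settings, which remove the values concerned, so that their counts of 0 follow from their construction.

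The complex differences at day 7 became, under quantile normalisation and the percentile over detected probes, 0.0974 and 0.0805 in complex I (-0.01 before), 0.10 and 0.10 in complex II (0.01), -0.0281 and -0.0415 in complex III (-0.13), and 0.101 and 0.0469 in complex V (-0.04), with 0.0177 under normexp. At day 90 complex V gave 0.0515 under quantile normalisation and 0.10 over members never saturated (0.28), and complex IV -0.38 over the latter (-0.06). Those of complex IV include Cox8b and Cox8c, whose probes were above background on no array of day 90.

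Under quantile normalisation the sign turned at day 90 in Atp5f1e (-0.17), Atp5f1a (-0.19), Cox4i1 (-0.0742) and Cox6c (-0.19), from day 30 to 90 in BAM in Atp5f1e (0.11) and Atp5f1a (0.0657), and from day 90 to 180 in BAM in Atp5f1a (-0.10) and Cox6c (-0.10). For the change of the graft difference it turned from day 30 to 90 in Atp5f1e (-0.18), Atp5f1a (-0.26), Cox4i1 (-0.0107) and Uqcr10 (-0.0339), and from day 90 to 180 in Atp5f1e (0.17), Atp5f1a (0.16) and Cox4i1 (0.12). With saturated spots missing, which leaves BAM replicate 8 as the only BAM array of day 90 for these genes, it turned at day 90 in Cox6a1 (-0.0893), Atp5f1a (-0.12), Atp5mc2 (-0.30) and Cox6c (-0.44), from day 30 to 90 in BAM in Cox6a1 (0.19), Atp5f1a (0.24), Atp5mc2 (0.41) and Uqcr10 (0.14), and from day 90 to 180 in BAM in Atp5f1a (-0.0651), Atp5mc2 (-0.39), Uqcr10 (-0.0340) and Cox6c (-0.40). The graft difference then turned from day 30 to 90 in Atp5f1a (-0.17), Atp5mc2 (-0.33) and Uqcr10 (-0.0411), and from day 90 to 180 in Atp5f1a (0.17), Atp5mc2 (0.30), Uqcr10 (0.0762) and Cox6c (0.13). Normexp turned Cox8b from day 30 to 90 in BAM+ASCs to 0.14 (-1.03).

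Leaving out each array in turn gave 1 to 4 members higher at day 180, with 1 without BAM replicate 4 and 2 without BAM replicates 5, 6 or 8 or BAM+ASCs replicates 1 or 2 of that day. From day 30 to 90 in BAM it gave 3 to 7 lower, with 3 without BAM replicate 6 of day 90. From day 90 to 180 in BAM it gave 1 to 3 lower, with 1 without BAM replicates 1 or 5 of day 90 or 5 of day 180. With the replicate number as a block, 8 members were higher and 4 lower at day 90, and 84 of 85 single-gene values kept their call. Whether the numbers pair the arrays was not tested.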
